A study of Mus musculus with 11 samples.

Results

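The genes described are 5 aldo-keto reductases of the mouse, Akr1b7, Akr1b8, Akr1b3, Akr1c18 and Akr1c14, matched by gene symbol among the 49671 genes of a read count table. They were measured by RNA sequencing of cells sorted from the adrenal glands of male Nes-GFP mice, a strain in which green fluorescent protein (GFP) reports activity of Nestin (Nes), an intermediate filament gene of progenitor cells. Cortex and medulla were separated by hand, digested and sorted, with 180 to 300 cells per tube, and the 6 mice were pooled as 3 pools of 2. The 11 libraries form 4 groups: cortical GFP-positive cells (n = 3), cortical GFP-negative cells (n = 3), medullary GFP-positive cells (n = 3) and medullary GFP-negative cells (n = 2). The reporter is carried by the mice of all 4 groups. The mice were about 3.5 months old for libraries 1 and 2 and about 2.5 months old for library 3 in both cortical groups. The medullary libraries of the older mice were GFP-positive library 1 and the pair of GFP-negative ones, and those of the younger mice were GFP-positive libraries 2 and 3. Age and gate are therefore partly confounded in the medulla. The labels tie no library to a pool or a mouse, and libraries of 1 group may share a pool. The p-values therefore measure the spread between these libraries, part of which may be technical.

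Total counts lay between 18500690 and 29204212 per library, and values are given as CPM, counts scaled to a common library size after TMM scaling, so that 3 counts are worth 0.104 to 0.157 CPM. Nes had 35.2 to 50.8 CPM in cortical GFP-positive and 4.59 to 7.44 CPM in cortical GFP-negative libraries, and 69.2 to 178 CPM in medullary GFP-positive against 16.1 to 26.1 CPM in medullary GFP-negative libraries. All 4 marker genes of steroid cells of the zona fasciculata (Cyp11b1, Mc2r, Star and Cyp11a1) were present in each group, with summed levels of 30380 to 36770 CPM in cortical GFP-positive, 12090 to 13570 in cortical GFP-negative, 10640 to 21550 in medullary GFP-positive and 3125 to 5750 CPM in medullary GFP-negative libraries. These sums are mostly Star, Cyp11a1 and Cyp11b1. Mc2r, the receptor for ACTH, went the other way, with mean levels of 225.4 CPM in cortical GFP-positive against 491.4 CPM in cortical GFP-negative cells (log2 -1.12 ± 0.23, edgeR adjusted p = 0.00868) and of 54.1 CPM in medullary GFP-positive against 197.2 CPM in medullary GFP-negative cells (-1.87 ± 0.25, 0.000658). The medullary groups thus held RNA of steroid cells beside that of chromaffin cells, whose 5 markers summed to 4787 to 8781 CPM in medullary GFP-positive and 4794 to 7494 CPM in medullary GFP-negative libraries. The chromaffin sums were 1.29 to 85.4 CPM in cortical GFP-positive libraries, with Pnmt at 0, and at most 0.118 CPM in cortical GFP-negative libraries, with Chgb, Dbh and Pnmt at 0. The 4 macrophage markers summed to 21.6 to 74.9 CPM in cortical GFP-positive and 789.9 to 1328 CPM in cortical GFP-negative libraries. In the medulla they summed to 88.9 to 218.8 CPM in GFP-positive and 4468 to 4548 CPM in GFP-negative libraries. In such bulk samples fewer cells of a type and less RNA per cell cannot be told apart.

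Aldo-keto reductases use NADPH to reduce the carbonyl group of aldehydes, sugars, prostaglandins or steroids to an alcohol. Akr1b7 is known from the mouse adrenal cortex, where pituitary ACTH induces it and its enzyme reduces isocaproaldehyde, the aldehyde released when cholesterol loses its side chain at the start of steroid synthesis. Akr1b7 and Akr1b3 can also make prostaglandin F. Akr1b3 is the mouse aldose reductase, which turns glucose into sorbitol, and Akr1b8 is a close relative first described as a gene induced by fibroblast growth factor. Akr1c18 is a hydroxysteroid dehydrogenase that inactivates progesterone and marks the X zone, an inner cortical zone that regresses in male mice at puberty. Akr1c14 is a hydroxysteroid dehydrogenase that acts on reduced androgens and progestogens.

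In build mm10 the Akr1b genes lie side by side on chromosome 6: Akr1b3 (ENSMUSG00000001642) at chr6:34302434-34317478 on the minus strand, Akr1b8 (ENSMUSG00000029762) at chr6:34354119-34368463, Akr1b10 at chr6:34384218-34396950 and Akr1b7 (ENSMUSG00000052131) at chr6:34412334-34423142, the last 3 on the plus strand. Akr1c14 (ENSMUSG00000033715) lies at chr13:4049011-4090422 on the plus strand and Akr1c18 (ENSMUSG00000021214) at chr13:4132615-4150654 on the minus strand. The Akr1b coding sequences resemble one another, and their first 60 coding bases (GENCODE transcripts of mm10) are shown. This stretch does not rank the genes by likeness over the whole coding sequence, for which identities are given below. Capitals mark bases that differ from Akr1b7, of which there are 2 in Akr1b8, 9 in Akr1b10 and 16 in Akr1b3.
Akr1b7: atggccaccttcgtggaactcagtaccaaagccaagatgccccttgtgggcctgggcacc
Akr1b8: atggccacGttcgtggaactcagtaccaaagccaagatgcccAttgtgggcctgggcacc
Akr1b10: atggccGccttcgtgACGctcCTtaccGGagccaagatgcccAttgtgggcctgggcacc
Akr1b3: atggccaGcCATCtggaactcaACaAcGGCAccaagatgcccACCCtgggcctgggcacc

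Over the aligned coding sequence Akr1b7 was 84.9% identical to Akr1b8, 89.3% to Akr1b10 and 73.1% to Akr1b3, and the longest identical run was 52 bases with Akr1b8 and 59 with Akr1b10. Akr1c18 and Akr1c14 were 76.0% identical. The 250 bases before the start of transcription (RefSeq, GRCm38.p6) are shown for the neighbours Akr1b7, Akr1b8 and Akr1b10, whose levels between gates are compared below. Akr1b7 is read from chr6:34412112-34412361, Akr1b8 from chr6:34353896-34354145 and Akr1b10 from chr6:34383997-34384246, all on the plus strand. Capitals mark matches, all on the opposite strand, to the motifs AAGGTCA (extended half-site of the steroidogenic factor Nr5a1) and TATAAA (core of the element that places the start of transcription).
Akr1b7: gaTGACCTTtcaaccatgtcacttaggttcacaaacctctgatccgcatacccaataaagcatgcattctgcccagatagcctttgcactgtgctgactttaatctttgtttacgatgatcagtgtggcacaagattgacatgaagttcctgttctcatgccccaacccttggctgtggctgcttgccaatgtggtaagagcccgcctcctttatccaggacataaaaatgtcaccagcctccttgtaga
Akr1b8: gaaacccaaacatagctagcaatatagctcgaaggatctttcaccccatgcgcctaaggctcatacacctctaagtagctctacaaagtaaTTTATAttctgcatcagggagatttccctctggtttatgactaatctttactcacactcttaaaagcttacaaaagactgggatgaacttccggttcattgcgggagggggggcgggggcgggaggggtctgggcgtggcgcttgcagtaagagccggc
Akr1b10: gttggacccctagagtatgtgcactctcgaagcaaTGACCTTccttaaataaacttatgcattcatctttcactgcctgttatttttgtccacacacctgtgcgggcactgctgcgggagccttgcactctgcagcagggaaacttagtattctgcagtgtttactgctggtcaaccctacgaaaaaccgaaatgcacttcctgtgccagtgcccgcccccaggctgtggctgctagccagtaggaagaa

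Both strands were searched for these motifs and for TGACNNNGC (antioxidant response element core) and TGACGTCA (cAMP response element). AAGGTCA was found 248 to 242 bases before the start of Akr1b7 and 215 to 209 bases before that of Akr1b10, and 4.05% of 27025 promoters of the same length hold it. TATAAA was found 159 to 154 bases before the start of Akr1b8, and 13.0% of promoters hold it. TGACNNNGC, present in 10.1% of promoters, and TGACGTCA, present in 1.62%, had no match in the windows of Akr1b7, Akr1b8, Akr1b10, Akr1c18 or Akr1c14. These are matches of letters, and binding was not measured.

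Akr1b7 had the highest counts of the 5 genes in every library. It had 11020, 8207 and 4747 CPM in cortical GFP-positive libraries 1 to 3, against 3054, 2047 and 2274 CPM in cortical GFP-negative libraries. In the medulla it had 4006, 1263 and 659.7 CPM in GFP-positive libraries, against 1060 and 463.0 CPM in GFP-negative libraries. All cortical GFP-positive libraries lay above all cortical GFP-negative ones, while the medullary gates overlapped because GFP-positive library 3 lay between the GFP-negative libraries. By mean CPM, which takes no account of gene length, it ranked 11 of 49671 genes in cortical GFP-positive, 28 in cortical GFP-negative, 29 in medullary GFP-positive and 121 in medullary GFP-negative cells. The spread within groups was wide, at 7990 ± 3140 CPM in cortical GFP-positive cells (SD, n = 3), 2459 ± 528.0 in cortical GFP-negative cells (SD, n = 3), 1976 ± 1784 in medullary GFP-positive cells (SD, n = 3) and 761.5 ± 422.1 CPM in medullary GFP-negative cells (SD, n = 2). The order of the group means was thus cortical GFP-positive, cortical GFP-negative, medullary GFP-positive and medullary GFP-negative, and among the last 3 each overlapped the next.

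**Figure D1:**
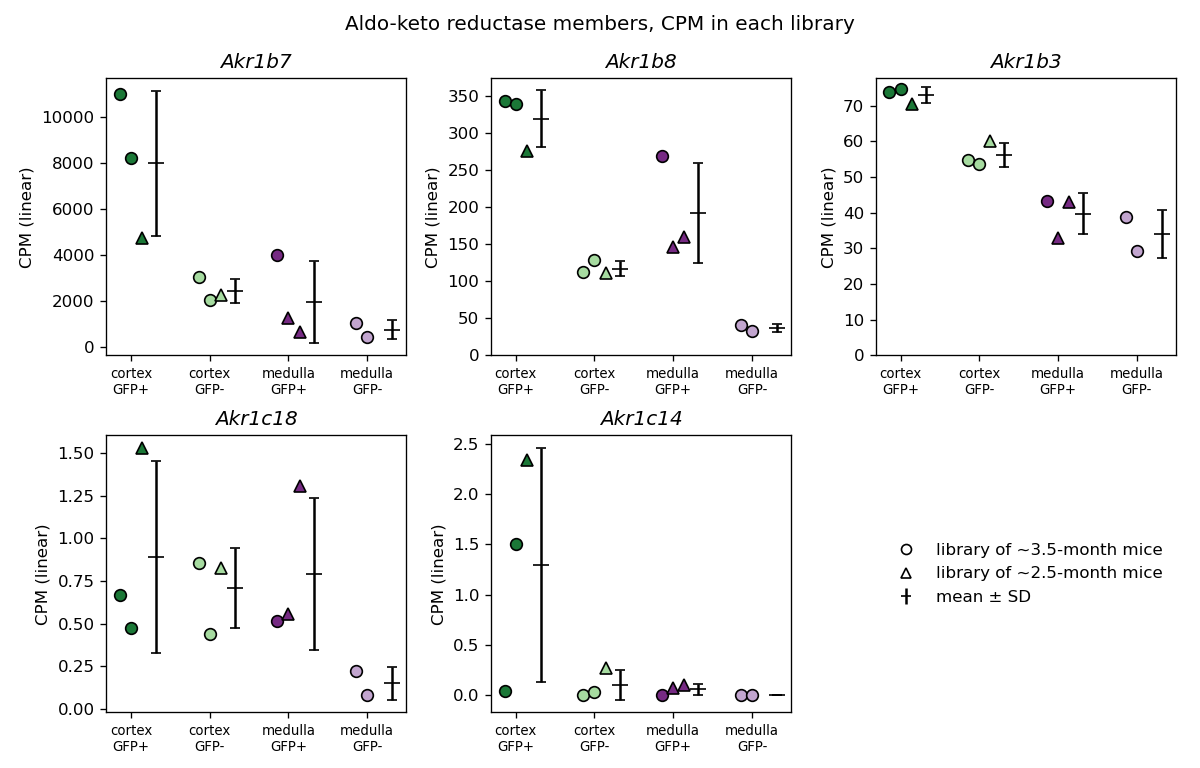
CPM (vertical axes, 1 panel per gene, each with its own scale) of the 5 genes in each library, by group along the horizontal axis, with circles for mice of about 3.5 months, triangles for about 2.5 months, and dashes with bars for mean ± SD. Akr1b7 spans 463.0 to 11020 CPM, Akr1b8 shows separated gates in both tissues, Akr1b3 steps down between tissues, and Akr1c18 and Akr1c14 stay at or below 2.34 CPM.

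Akr1b8 showed narrower groups at a lower level. It had 342.8, 338.9 and 275.4 CPM in cortical GFP-positive libraries, against 111.7, 128.0 and 111.5 CPM in cortical GFP-negative libraries. In the medulla the values were 269.0, 146.3 and 159.4 CPM in GFP-positive and 40.7 and 32.9 CPM in GFP-negative libraries. No GFP-positive library overlapped a GFP-negative one of the same tissue, and here medullary GFP-positive cells (191.6 ± 67.4 CPM, SD, n = 3) stood above cortical GFP-negative cells (117.1 ± 9.47 CPM, SD, n = 3), an order unlike that of Akr1b7. The rank on the same scale was 396 in cortical GFP-positive, 1615 in cortical GFP-negative, 781 in medullary GFP-positive and 5172 in medullary GFP-negative cells.

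Akr1b3, aldose reductase, varied least. It had 73.8, 74.8 and 70.3 CPM in cortical GFP-positive and 54.9, 53.7 and 60.01 CPM in cortical GFP-negative libraries. In the medulla it had 43.4, 33.0 and 42.9 CPM in GFP-positive and 38.9 and 29.4 CPM in GFP-negative libraries. Each cortical library lay above each medullary library, the cortical gates did not overlap, and the medullary gates did.

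Akr1c18 was near the limit of counting. It had 0.668, 0.472 and 1.53 CPM in cortical GFP-positive and 0.858, 0.440 and 0.826 CPM in cortical GFP-negative libraries, which overlapped. In the medulla it had 0.516, 0.556 and 1.30 CPM in GFP-positive libraries (10, 16 and 25 counts) and 0.219 and 0.0812 CPM in GFP-negative libraries (6 and 2 counts), which did not overlap. Pik3c2g, the other X zone gene listed, had at most 0.225 CPM in any library and none in medullary GFP-negative ones. It was not among the genes tested, so the X zone list rests on Akr1c18.

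Akr1c14 had 1, 35 and 52 counts in cortical GFP-positive libraries, or 0.0445, 1.502 and 2.34 CPM. It had 0, 1 and 7 counts in cortical GFP-negative, 0, 2 and 2 in medullary GFP-positive and 0 and 0 in medullary GFP-negative libraries. Cortical GFP-positive library 1, with its single count, lay within the range of the GFP-negative cells, so the gates overlapped although libraries 2 and 3 stood above all others. Both 0 values allow up to 0.110 and 0.122 CPM, the worth of 3 counts in medullary GFP-negative libraries 1 and 2, and cover counting error only, since no molecular identifiers were used and PCR copies are counted as reads.

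Lengths differ between the genes. Per kilobase of the coding transcript, mean levels in cortical GFP-positive cells were 6240 CPM per kb for Akr1b7, 235 for Akr1b8, 52.6 for Akr1b3, 0.742 for Akr1c18 and 0.407 CPM per kb for Akr1c14. In medullary GFP-negative cells the same levels were 594, 27.1, 24.6, 0.125 and 0 CPM per kb. The order of the 5 genes was the same in all 4 groups on this scale. For Akr1b3 the scale depends on the transcript chosen, because its deposited length of 8384 bases, against 1387 for the coding transcript, gives 8.70 CPM per kb in cortical GFP-positive cells.

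The first comparison asks how cortical GFP-positive cells differ from cortical GFP-negative cells. Akr1b8 was higher in GFP-positive cells, by 1.45 ± 0.22 on the log2 scale or 2.73-fold (approximate SE; adjusted p = 0.00224, edgeR quasi-likelihood test over 20893 genes with Benjamini-Hochberg adjustment). Akr1b7 was 3.25-fold higher on average, at a log2 difference of 1.70 ± 0.60 with a 95% interval of 0.37 to 3.03, but its edgeR adjusted p of 0.085 missed the threshold of 0.05. Akr1b3 differed by 0.38 ± 0.15 (edgeR adjusted p = 0.129), Akr1c18 by 0.33 ± 0.72 (0.815) and Akr1c14 by 3.59 ± 1.62 (0.174). Thus 1 of 5 genes was called, against 14.7% of all genes tested (7.14% higher and 7.59% lower), while Akr1b7, Akr1b8 and Akr1b3 had no overlap between the gates, as had 18.8% of all genes in this direction. The call for Akr1b7 turns on the fit: it was reached under 6 of 21 alternatives, among them with the 2 groups fitted alone (1.71, edgeR adjusted p = 0.00614), with limma voom (1.64, adjusted p = 0.0419), without a filter on low counts (1.70, edgeR adjusted p = 0.0454) and without medullary GFP-positive library 1 (edgeR adjusted p = 0.0225) or 3 (0.0448).

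In the same comparison of the medulla, Akr1b8 was again the gene called. In GFP-positive cells it was 5.20-fold higher, at a log2 difference of 2.38 ± 0.27 (edgeR adjusted p = 0.000271). Akr1b7 differed by 1.38 ± 0.68, with a 95% interval of -0.14 to 2.89 (edgeR adjusted p = 0.184), Akr1c18 by 2.35 ± 0.91 (0.0948) and Akr1b3 by 0.22 ± 0.17 (0.415). Akr1c14 had too few counts in both gates for a fold to be given (edgeR adjusted p = 0.347). The share called was 1 of 5 genes, against 21.4% of all genes tested (10.2% higher and 11.1% lower). Akr1b8 and Akr1c18 had no overlap between these gates, as had 25.6% of all genes in this direction. Among libraries of mice of about 3.5 months, GFP-positive library 1 (4006 CPM of Akr1b7) lay above the GFP-negative ones, with a log2 difference of 2.39 (edgeR adjusted p = 0.0305). That p takes its spread from the other groups, since it assumes that the lone GFP-positive library varies as they do. Without that library the difference over the rest was 0.34 (edgeR adjusted p = 0.7), and there age and gate cannot be told apart. The GFP-positive libraries left are of the younger mice and the GFP-negative ones of the older mice.

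**Figure D2:**
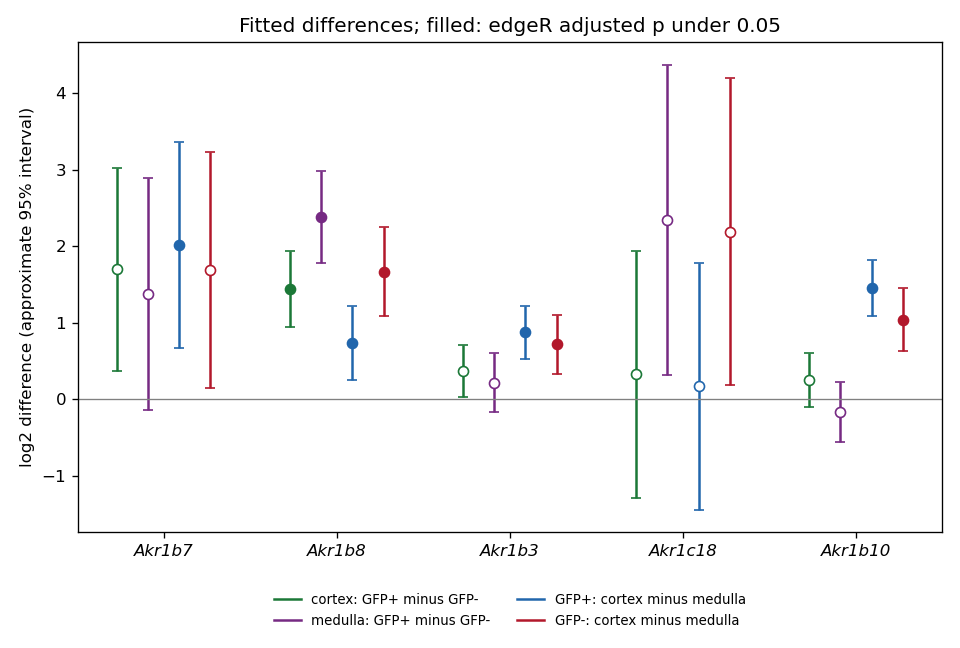
Fitted log2 difference (vertical axis) with its approximate 95% interval for Akr1b7, Akr1b8, Akr1b3, Akr1c18 and the neighbour Akr1b10, in 4 comparisons by colour, with filled points for an edgeR adjusted p under 0.05. Akr1b8 is filled in all 4 comparisons, at 0.74 to 2.38, while Akr1b3 and Akr1b10 are filled between tissues and open between gates.

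Between tissues, GFP-positive cells of the cortex were set against those of the medulla. Akr1b7 was 4.04-fold higher in the cortex (log2 2.02 ± 0.60, edgeR adjusted p = 0.0479), Akr1b3 was higher by 0.88 ± 0.15 (0.00465) and Akr1b8 by 0.74 ± 0.22 (0.0471). Akr1c18 differed by 0.17 ± 0.73 (edgeR adjusted p = 0.918) and Akr1c14 by 4.35 ± 1.71 (0.126). These were 3 of 5 genes called, against 15.5% of all genes tested (6.04% higher and 9.45% lower). Akr1b7, Akr1b8 and Akr1b3 had no overlap between the tissues, as had 16.0% of all genes in this direction. The calls of Akr1b7 and Akr1b8 were near the threshold, and were lost under 12 of 21 and 14 of 20 alternatives, with log2 differences of 1.27 to 3.05 for Akr1b7 and 0.34 to 1.06 for Akr1b8. Akr1b7 lost its call without any 1 of the cortical libraries of either gate and without medullary GFP-positive library 2 or 3, and was at 3.05 without medullary GFP-positive library 1. Akr1b8 lost its call without the same libraries and without either medullary GFP-negative library. Age moved with tissue here: at about 3.5 months Akr1b7 had 11020 and 8207 CPM in the cortex and 4006 CPM in the medulla, and at about 2.5 months it had 4747 CPM in the cortex and 1263 and 659.7 CPM in the medulla. With the older libraries alone the log2 difference was 1.27 (edgeR adjusted p = 0.304) for Akr1b7, 0.34 (0.51) for Akr1b8 and 0.78 (0.206) for Akr1b3, where the medullary group is 1 library that is assumed to vary like the other groups. Over all genes, that setting called 2.64% of those tested.

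GFP-negative cells gave a similar order of tissues. Akr1b8 was 3.18-fold higher in cortical than in medullary GFP-negative cells (log2 1.67 ± 0.26, edgeR adjusted p = 0.00286) and Akr1b3 was higher by 0.72 ± 0.18 (0.0188). Akr1b7 differed by 1.69 ± 0.69 without overlap between the groups (edgeR adjusted p = 0.116), Akr1c18 by 2.192 ± 0.904 (0.119), and Akr1c14 had at most 7 counts in a library. The count was 2 of 5 genes, against 18.6% of all genes tested (8.06% higher and 10.6% lower). Akr1b7, Akr1b8, Akr1b3 and Akr1c18 had no overlap between the tissues, as had 23.4% of all genes in this direction. Akr1b7 was called under 5 of 21 alternatives, among them with the 2 groups fitted alone (1.68, edgeR adjusted p = 0.0218), with age as a term (2.12, 0.0349), with the older libraries alone (1.75, 0.0487) and without medullary GFP-positive library 1 (1.69, 0.0353). The call of Akr1b3 was lost without cortical GFP-negative library 1 (0.68, edgeR adjusted p = 0.0605) or 3 (0.67, 0.0536), without medullary GFP-negative library 2 (0.53, 0.154) and with the older libraries alone (0.67, 0.0915).

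The estimated gate difference of Akr1b8 in the cortex less that in the medulla was -0.93 ± 0.33 on the log2 scale, with an unadjusted p of 0.018 and an adjusted p of 0.196 for the interaction in edgeR. For Akr1b7 the interaction was 0.32 ± 0.87 (edgeR adjusted p = 0.917), for Akr1b3 0.16 ± 0.23 (0.804) and for Akr1c18 -2.02 ± 1.13 (0.413). None of the 5 genes was called in edgeR, while 1.61% of all genes tested were called (0.857% positive and 0.756% negative). An unadjusted p under 0.05 was found for 1 of the 5 and for 16.7% of all genes tested. DESeq2 and limma voom called none of Akr1b7, Akr1b8, Akr1b3 and Akr1c18 either. A difference of the gate effects between tissues was therefore not detected for any of them, although the interval for Akr1b7, -1.61 to 2.26, is wide.

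Star, which carries cholesterol into the mitochondrion, and Cyp11a1, the side-chain cleavage enzyme whose aldehyde product Akr1b7 reduces, were set beside the genes as early steps of steroid synthesis. Star had 17720 to 22960 CPM in cortical GFP-positive and 5689 to 6887 CPM in cortical GFP-negative libraries, a log2 difference of 1.68 ± 0.30 (edgeR adjusted p = 0.005). In the medulla Star had 5679 to 12870 CPM in GFP-positive and 1649 to 3136 CPM in GFP-negative libraries (2.02 ± 0.36, edgeR adjusted p = 0.00299). Cyp11a1 had 6802 to 10770 CPM in cortical GFP-positive and 4381 to 5161 CPM in cortical GFP-negative libraries (0.87 ± 0.28, edgeR adjusted p = 0.063), and 3366 to 6059 CPM in medullary GFP-positive against 1047 to 2031 CPM in medullary GFP-negative libraries (1.54 ± 0.33, 0.0077). The part of these genes in the differences of Akr1b7 and Akr1b8 was not tested, but the ratios can be given.

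Akr1b7 CPM was 61.3%, 35.7% and 26.8% of Star CPM in cortical GFP-positive libraries and 53.7%, 29.7% and 39.6% in cortical GFP-negative ones. The means were 41.3% ± 17.9 and 41.0% ± 12.0 (SD, n = 3 each), which overlapped (exact permutation test, two-sided p = 1.0, where the smallest possible is 0.1). In the medulla the ratio was 31.1%, 22.2% and 6.21% in GFP-positive and 33.8% and 28.1% in GFP-negative libraries (exact permutation p = 0.4, smallest possible 0.2). Relative to Cyp11a1 the picture was different. Akr1b7 was 102%, 95.5% and 69.8% of Cyp11a1 in cortical GFP-positive libraries, against 59.2%, 42.6% and 51.9% in cortical GFP-negative ones, with no overlap (exact permutation p = 0.1, the smallest possible). In the medulla it was 66.1%, 37.5% and 16.5% in GFP-positive and 52.2% and 44.2% in GFP-negative libraries, which overlapped. In GFP-positive cells the libraries of younger mice had the lowest ratios of Akr1b7 to Star in each tissue, while the younger cortical GFP-negative library, at 39.6%, lay between the older ones.

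**Figure D3:**
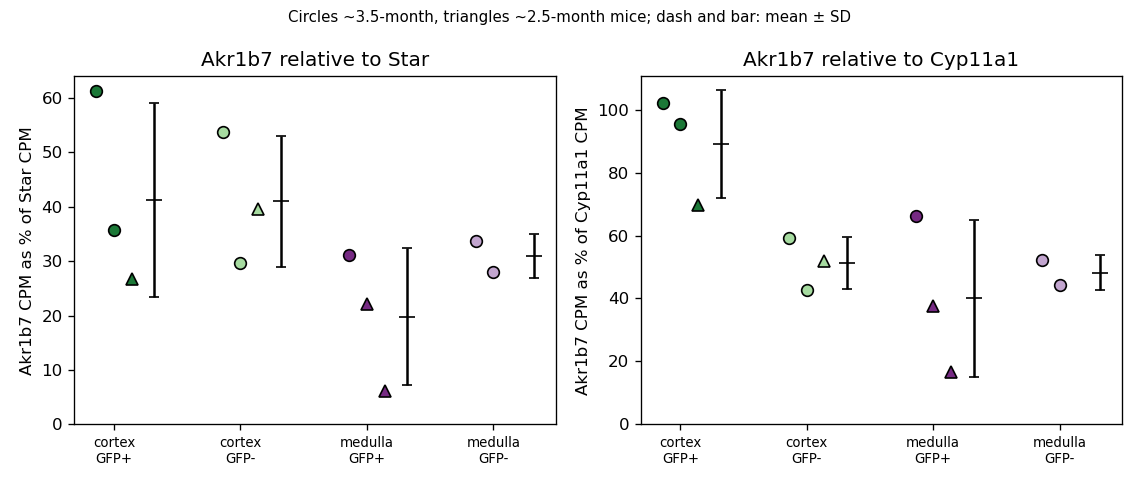
Akr1b7 CPM as a percentage of Star CPM (left) and of Cyp11a1 CPM (right) in each library by group, with circles for mice of about 3.5 months, triangles for about 2.5 months, and dashes with bars for mean ± SD. The cortical gates overlap relative to Star and separate relative to Cyp11a1, where GFP-positive libraries stand at 69.8% or more and GFP-negative ones at 59.2% or less.

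Akr1b8 lay between 1.30% and 2.58% of Star CPM over the 11 libraries, and its gates overlapped on this scale in both tissues. It was 1.65% ± 0.23 of Star CPM in cortical GFP-positive and 1.92% ± 0.0552 in cortical GFP-negative cells (SD, n = 3 each; exact permutation p = 0.2). In the medulla it was 2.06% ± 0.538 in GFP-positive (SD, n = 3) and 1.65% ± 0.491 in GFP-negative cells (SD, n = 2; exact permutation p = 0.4). Relative to Cyp11a1 the gates of Akr1b8 did not overlap in either tissue. Akr1b8 was 3.18%, 3.94% and 4.05% of Cyp11a1 CPM in cortical GFP-positive libraries, against 2.17%, 2.66% and 2.54% in cortical GFP-negative ones (exact permutation p = 0.1, the smallest possible). Medullary values were 4.44%, 4.35% and 3.99% in GFP-positive libraries, against 2.01% and 3.14% in GFP-negative ones (exact permutation p = 0.2, the smallest possible with 3 against 2). Akr1b3 was 0.378% ± 0.0455 of Star CPM in cortical GFP-positive cells, against 0.93% ± 0.136 in cortical GFP-negative cells (SD, n = 3 each), without overlap (exact permutation p = 0.1). In all, 24 such ratio tests were made and none can go below 0.1, so none can pass a threshold of 0.05 before or after adjustment.

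**Figure D4:**
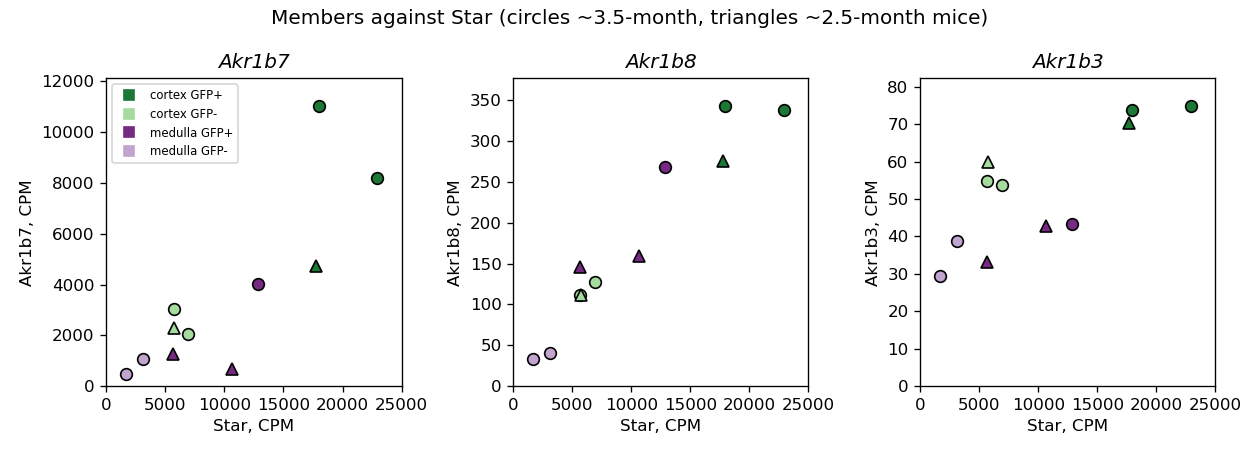
CPM of Akr1b7, Akr1b8 and Akr1b3 (vertical axes) against CPM of Star (horizontal axis) in the 11 libraries, coloured by group, with circles for mice of about 3.5 months and triangles for about 2.5 months. Akr1b8 is higher where Star is higher, Akr1b7 scatters more, with the younger GFP-positive libraries low for their Star level, and Akr1b3 separates by tissue.

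Genes with the most similar pattern were ranked by Pearson's r of log2(CPM + 1) over the 11 libraries among 11988 genes, as a description in which points share gate and tissue. For Akr1b7 they were Gm15806 (r = 0.971), a processed pseudogene that shares sequence with it, then Prkar2b (0.959), a regulatory subunit of protein kinase A, D8Ertd738e (0.959), Gm9892 (0.958) and Gm14494 (0.951). For Akr1b8 they were Wnt5a, a secreted Wnt ligand, and Timm8b (0.989 each), Mettl9 (0.986), Prss35 (0.985) and Ric3 (0.984). For Akr1b3 they were Marc2 and Mgarp (0.982 each), Fdxr (0.981), the ferredoxin reductase that passes electrons to mitochondrial steroid enzymes, Gm2830 (0.98) and Abce1 (0.976). For Akr1c18, with few counts, they were Maoa (0.91), Oaz1 (0.9), Commd6 (0.898), Slc18b1 (0.891) and Greb1 (0.865).

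Akr1b10, the neighbour closest to Akr1b7 in coding sequence, had overlapping gates in both tissues. It had 496.4, 428.7 and 400.3 CPM in cortical GFP-positive and 402.9, 367.4 and 342.7 CPM in cortical GFP-negative libraries, which overlapped (log2 0.25 ± 0.16, edgeR adjusted p = 0.324). In the medulla it had 171.0, 142.2 and 170.3 CPM in GFP-positive and 213.8 and 146.3 CPM in GFP-negative libraries (-0.16 ± 0.18, 0.579). Between tissues it was higher in the cortex, by 1.46 ± 0.16 in GFP-positive cells (edgeR adjusted p = 0.000512) and 1.04 ± 0.18 in GFP-negative cells (0.0048). The difference of the gate effects between Akr1b10 and Akr1b7 was not itself tested.

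Of 15 other aldo-keto reductases, 11 were abundant enough to be tested. In the cortical gate comparison 0 were higher and 1 was lower, against 7.14% and 7.59% of all genes tested. The median log2 difference was 0.25, against 0.03 over all genes. The gene that fell was Kcnab2, a potassium channel subunit with this protein fold, at 0.455 ± 0.403 CPM in GFP-positive and 5.11 ± 0.789 CPM in GFP-negative cells (SD, n = 3 each; edgeR adjusted p = 0.019). In the medullary gate comparison 3 were higher and 1 was lower, against 10.2% and 11.1% of all genes tested. The median there was -0.16, against 0.09 over all genes. Akr1cl, a gene similar to the Akr1c group, was higher there at 1558 ± 809.3 CPM in GFP-positive and 543.4 ± 196.6 CPM in GFP-negative cells (SD, n = 3 and 2; edgeR adjusted p = 0.0163), as were Akr1e1 (0.0036) and Kcnab3 (0.0228). Akr1a1, the general aldehyde reductase, was lower, at 735.4 ± 31.1 CPM in GFP-positive and 978.0 ± 74.8 CPM in GFP-negative cells (SD, n = 3 and 2; edgeR adjusted p = 0.0186).

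Between tissues, 3 of the 11 were higher in cortical GFP-positive cells (Akr1a1, Akr1b10 and Akr7a5; median 0.51 against -0.03 over all genes) and 6 in cortical GFP-negative cells (also Akr1cl, Akr1e1 and Kcnab3; median 0.73 against -0.02). None was lower in the cortex and none was called in the interaction (median -0.69 against -0.02). Of all genes tested, 6.04% were higher and 9.45% lower in the cortex for GFP-positive cells, and 8.06% and 10.6% for GFP-negative cells. In the interaction 0.857% of all genes were positive and 0.756% negative. Akr1c13 had 17.4 ± 8.24 CPM in cortical GFP-positive, 13.7 ± 3.61 in cortical GFP-negative, 12.6 ± 2.59 in medullary GFP-positive and 14.6 ± 2.10 CPM in medullary GFP-negative cells (SD), which overlapped in every comparison. Akr1c12, which is 96.2% identical to it in coding sequence, Akr1c21 and Kcnab1 had group means of at most 4.80 CPM and were not called. Akr1c6, Akr1c19 and Akr1c20 had at most 5 counts each over all libraries, and Akr1d1 was seen almost wholly in 1 library.

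**Figure D5:**
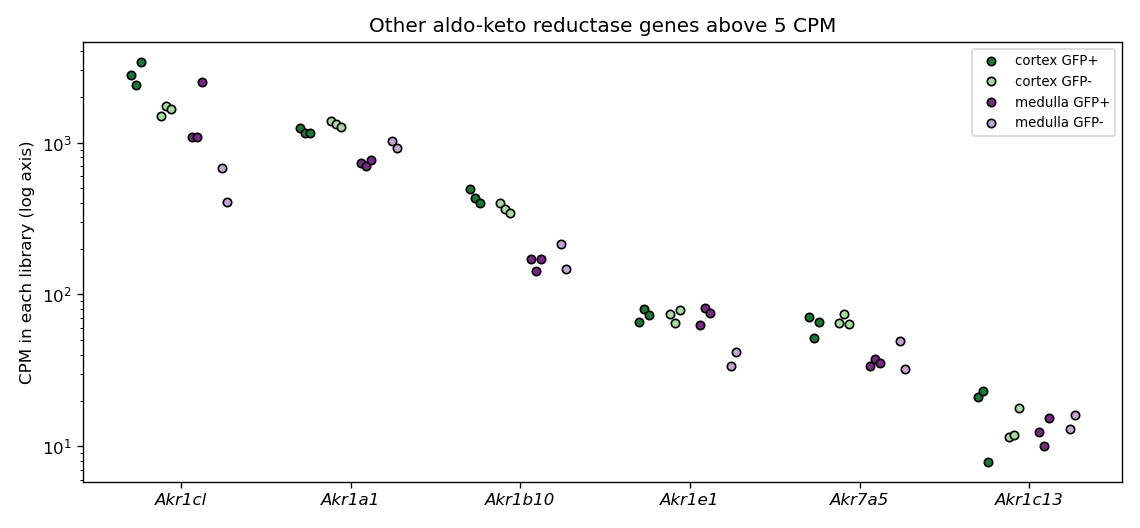
CPM in each library (vertical log axis) of the 6 other enzymes of the family above 5 CPM, with the 4 groups side by side for each gene. Akr1cl, at 404.3 to 3378 CPM, lies highest except in medullary GFP-negative libraries, where Akr1a1 lies above it. Akr1a1 and Akr1b10 are higher in both cortical groups than in the medullary ones, and Akr1c13 shows no separation of the groups.

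The pathways around these enzymes were counted from lists. For all genes tested, the shares called higher and lower are 7.14% and 7.59% in the cortical gates, 10.2% and 11.1% in the medullary gates, 6.04% and 9.45% for cortex against medulla in GFP-positive cells, 8.06% and 10.6% for the same in GFP-negative cells, and 0.857% and 0.756% in the interaction, with median log2 differences of 0.03, 0.09, -0.03, -0.02 and -0.02. Of 14 steroid synthesis genes, 5 were higher and 2 lower in cortical GFP-positive against GFP-negative cells, 7 higher and 3 lower in the medullary gates, 11 higher and 0 lower in cortical against medullary GFP-positive cells, and 9 higher and 0 lower in GFP-negative cells. Their median log2 differences were 0.44, 0.74, 1.21 and 1.30, and 1 gene was higher in the interaction. Hsd3b1, which makes progesterone from pregnenolone, had mean levels of 23990 CPM in cortical GFP-positive and 17150 CPM in cortical GFP-negative cells (edgeR adjusted p = 0.19), and of 11100 CPM in medullary GFP-positive and 5019 CPM in medullary GFP-negative cells (0.0123). Cyp21a1, which encodes the hydroxylase between progesterone and deoxycorticosterone, had 4737 CPM in cortical GFP-positive and 5057 CPM in cortical GFP-negative cells (edgeR adjusted p = 0.873).

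Of 12 tested genes of steroid reduction and oxidation, 2 were higher and 2 lower in the cortical gates, 5 higher and 2 lower in the medullary gates, 1 and 0 between tissues in GFP-positive and 3 and 0 in GFP-negative cells (medians 0.80, 0.60, -0.10 and -0.10). Srd5a2, a steroid reductase gene, had mean levels of 1566 CPM in cortical GFP-positive and 12.8 CPM in cortical GFP-negative cells (edgeR adjusted p = 0.000947), and 1247 and 14.7 CPM in the same gates of the medulla (0.00213). Hsd17b12, an enzyme of fatty acid elongation, was lower, at 137.2 CPM in cortical GFP-positive and 258.3 CPM in cortical GFP-negative cells (edgeR adjusted p = 0.000847). In the same groups Hsd17b4 had mean levels of 109.6 and 125.0 CPM and Hsd17b10 of 151.9 and 140.3 CPM.

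Of 16 tested genes of aldehyde oxidation and reduction, 2 were higher and 2 lower in the cortical gates, 5 and 2 in the medullary gates, 2 and 1 between tissues in GFP-positive and 8 and 2 in GFP-negative cells (medians 0.12, 0.60, 0.25 and 0.63). Aldh1a1, a retinaldehyde dehydrogenase, had mean levels of 2267 CPM in cortical GFP-positive and 3.77 CPM in cortical GFP-negative cells (edgeR adjusted p = 0.000163). Aldh2, the mitochondrial acetaldehyde dehydrogenase, was lower in cortical GFP-positive cells, at 183.0 CPM, than in GFP-negative cells, at 266.7 CPM (edgeR adjusted p = 0.0221). Adh1, at 1066 and 1067 CPM in the same groups, and Adh5, at 343.6 and 338.4 CPM (edgeR adjusted p = 0.945), were not called there.

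Of 22 tested genes of prostaglandin synthesis, breakdown and receptors, 1 was higher and 6 were lower in the gates of each tissue, with medians of -0.37 in the cortex and -0.30 in the medulla. Between tissues the counts were 2 higher and 2 lower in GFP-positive and 4 and 4 in GFP-negative cells (medians -0.52 and -1.42), and none was called in the interaction. Hpgd, which inactivates prostaglandins, had mean levels of 14.6 CPM in cortical GFP-positive and 141.5 CPM in cortical GFP-negative cells (edgeR adjusted p = 0.00173), and of 25.5 CPM in medullary GFP-positive and 562.8 CPM in medullary GFP-negative cells (0.000322). The macrophage marker sums given above moved in the same direction, and their part in this was not tested. Ptgr1, a prostaglandin reductase, was higher in the cortex, at 132.5 against 41.1 CPM in medullary GFP-positive cells (edgeR adjusted p = 0.000288). In cortical GFP-positive and GFP-negative cells Ptges3 had mean levels of 170.1 and 176.9 CPM and Ptgr2 of 80.35 and 111.2 CPM.

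In the polyol pathway, where Akr1b3 takes the first step, 3 other genes were tested. Sord, which turns the sorbitol into fructose, was lower in GFP-positive cells, at 104.2 CPM against 209.0 CPM in cortical GFP-negative cells (edgeR adjusted p = 0.02) and at 46.5 CPM against 97.8 CPM in medullary GFP-negative cells (0.0164). Khk, the fructose kinase, was higher in cortical GFP-positive cells, at 48.0 CPM against 28.7 CPM in GFP-negative cells (edgeR adjusted p = 0.0432). Slc2a1 had mean levels of 25.8 and 25.2 CPM in the same groups. Between tissues 1 of the 3 was higher in the cortex in each gate, and in the interaction none was called. The median differences were 0.03 in the cortical and 0.41 in the medullary gates, 0.27 between tissues in GFP-positive and 0.49 in GFP-negative cells.

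Of 14 genes of Nrf2 and its targets, a stress response that includes reductases in other cells, 4 were higher and 1 lower in the cortical gates, 2 and 4 in the medullary gates, 2 and 0 between tissues in GFP-positive and 3 and 4 in GFP-negative cells, and 2 were higher in the interaction (medians 0.23, 0.07, 0.24, 0.04 and 0.41). Nfe2l2, which encodes Nrf2, was lower in GFP-positive cells, at 196.8 CPM against 303.5 CPM in cortical GFP-negative cells (edgeR adjusted p = 0.0132). Between the same groups Prdx1, the most abundant gene of the list, had mean levels of 1252 and 1111 CPM. Cat had 294.1 and 237.2 CPM there (edgeR adjusted p = 0.0998). Hmox1, a haem oxygenase gene, had 389.5 CPM in cortical GFP-positive and 134.7 CPM in cortical GFP-negative cells (edgeR adjusted p = 0.00203), but 330.3 CPM in medullary GFP-positive and 382.3 CPM in medullary GFP-negative cells (0.611), and its interaction was called (1.74 ± 0.34, edgeR adjusted p = 0.0361).

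The other marker lists place the groups. Zona glomerulosa markers summed to 767.6 to 812.5 CPM in cortical GFP-positive and 4320 to 5377 CPM in cortical GFP-negative libraries, and to 32.3 to 95.3 CPM in medullary GFP-positive and 1719 to 2845 CPM in medullary GFP-negative ones. Schwann cell and glia markers reached 101.1 to 154.5 CPM in cortical GFP-positive and 896.7 to 2080 CPM in medullary GFP-positive libraries, against at most 9.47 CPM in GFP-negative libraries of either tissue, with Sox10 at 0 in medullary GFP-negative cells. Endothelium, pericyte and smooth muscle, fibroblast and adipocyte markers summed to at most 241.9 CPM in any library, with Adipoq at 0 in 3 of the 4 groups. Pericyte and smooth muscle markers summed to 54.4 to 201.1 CPM in cortical GFP-positive against 1.22 to 3.85 CPM in cortical GFP-negative libraries. In the medulla the sums overlapped between the gates and were mostly Rgs5, with means of 134.5 CPM in GFP-positive and 128.1 CPM in GFP-negative cells. Notch3 (9.21 against 0.31 CPM), Pdgfrb (4.49 against 2.475) and Acta2 (4.47 against 0.52) were higher in medullary GFP-positive cells without overlap. Of the 4 markers, 1 was called higher there. Fibroblast markers summed to 18.6 to 62.7 against 1.16 to 8.22 CPM in the cortical gates. In the medulla the fibroblast sums went the other way, at 5.42 to 30.2 against 46.8 to 55.3 CPM. There 2 of the 4 markers were called lower and 0 higher. Col1a1 did not follow the sum, at 12.2 CPM in medullary GFP-positive and 3.34 CPM in medullary GFP-negative cells (edgeR adjusted p = 0.297). The part of these cells in the differences above was not tested.

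Reads of near-identical copies limit these values. Of 1232 distinct stretches of 50 bases in the Akr1b7 transcript, 15.8% also occurred in other annotated genes: 164 in Gm13857, a transcribed processed pseudogene on the opposite strand of the locus, 20 in the pseudogene Gm15806, 14 in Akr1b10 and 3 in Akr1b8. The library kit does not mark strand. Counts assigned to Gm13857 were 0.00865% to 0.223% and those of Gm15806 0.364% to 1.16% of those of Akr1b7. Adding both to Akr1b7, an alternative chosen after seeing the data, gave a log2 difference of 2.01 between cortical and medullary GFP-positive cells (edgeR adjusted p = 0.0477). The share was 2.9% for Akr1b8, 0.581% for Akr1c18, 5.8% for Akr1c14 and 13.6% for Akr1b3. For Akr1b3 it is taken over 8610 stretches of 6 transcripts, 1103 of them found in Gm38056, while its coding transcript has 1387 bases. It therefore does not compare directly with the share for Akr1b7, which has 1 transcript. Counts of the annotated gene Gm38056 amounted to 8.72% to 27.3% of those of Akr1b3. Where reads that match several genes were placed is not given in the sources used here, so the levels of Akr1b3 and, to a smaller extent, Akr1b7 are uncertain.

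In the authors' deposited table for the medulla, Akr1b8 has a log2 fold change of 2.33 with a standard error of 0.266 and an adjusted p of 2.338e-05. In the authors' deposited table for the cortex, Akr1b8 has 1.42 and Akr1b7 1.57, each with an adjusted p of 1.0. In their table for cortical against medullary GFP-positive cells, Akr1b7 has 1.83, Akr1b3 0.82 and Akr1b8 0.68, none with an adjusted p under 0.05. The authors' test statistics equal those obtained when the null is a change of up to 1 on the log2 scale in either direction, with a largest deviation of 7.28e-14 over all genes of the 3 tables, so their adjusted p answers a stricter question.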

How the data were processed

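The authors deposited 1 table of whole-number read counts per gene, not normalized, for the 11 libraries. Tools listed in the submitters' processing notes, with no role, are featureCounts 1.6.0, GSNAP, bcl2fastq 2.19.1, DESeq2 1.18.1 and DESeq, beside the build mm10. Per the labels' protocols, cDNA was primed on the poly(A) tail, amplified by 17 cycles of PCR and cut by a transposase. For 3 comparisons the authors deposited log2 fold changes, p-values and adjusted p-values, per the file headers, and beside them 17 columns of normalized values per library that were not used. The 92 spike-in sequences, with 10 counts, were left out.

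Libraries were grouped by title. edgeR 4.0.16 (R 4.3.3) was used with filterByExpr, TMM and the quasi-likelihood test in 1 fit of the 4 groups, with 7 residual degrees of freedom (median prior 3.2) and a common biological coefficient of variation of 0.479. Benjamini-Hochberg adjustment ran over 20893 genes in each comparison, at a threshold of 0.05. Standard errors were derived from the fitted difference and its F statistic and are approximate. Ratios to Star and Cyp11a1 were compared by two-sided exact permutation tests of log ratios. Alternatives were other scalings, no filter, DESeq2 1.42.0, limma 3.58.1 (voom), age and replicate number as terms, fewer libraries and each library left out. The edgeR fit was also run on simulated counts with changes planted in cortical GFP-positive cells only. That run cannot vouch for the other comparisons or for calls near the threshold. Chi-square divided by its degrees of freedom was 27 to 94.1 between libraries of 1 group, so they differed by more than counting error. Each library was taken as 1 sample, although this does not show that libraries of 1 group came from different mice.

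The 5 genes, the lists and the tests were chosen with earlier results of these data known. Named are the 5 genes, the other aldo-keto reductases, at most the 4 most abundant genes of each further list (prostaglandins, polyol pathway, steroid synthesis, steroid reduction and oxidation, X zone, aldehydes, Nrf2 and cell type markers), and the 5 genes most correlated with Akr1b7, Akr1b8, Akr1b3 and Akr1c18 among tested genes of at least 5 CPM. Transcript stretches of 50 bases were compared over all annotated transcripts on both strands.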

Additional observations from a re-analysis of the deposited data

How the results depend on the processing

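Of 468 alternative values for the 5 genes, 411 kept direction and side of the threshold, 31 lost a call, 15 gained one and 11 changed sign. The Akr1b8 calls between gates in both tissues and between GFP-negative cells of the tissues held under all 20 alternatives, at log2 differences of 1.34 to 1.54, 2.06 to 2.87 and 1.52 to 1.84. The number of genes called in the cortical gate comparison, 1, was 2 with no filter, with limma voom and with the replicate block, 3 with the groups fitted alone, and 1 to 2 with a library left out. In the medullary gate comparison it was 2 with the replicate block and with the 3.5-month libraries only, and 1 with any library left out. In the tissue comparison of GFP-positive cells, 3 genes became 1 with DESeq2 size factors, with total counts alone and with the groups fitted alone, 0 with the 3.5-month libraries only, and 1 to 3 with a library left out. In that of GFP-negative cells, 2 became 3 with age as a term and with the groups fitted alone, and 1 to 3 with a library left out. The 3.5-month setting leaves 1 medullary GFP-positive library, and leaving out a medullary GFP-negative library leaves 1 there; a lone library is assumed to vary like the other groups. Over all genes, 2.64% were called between GFP-positive cells with the 3.5-month libraries, against 15.5%. For the same cells the share was 15.1% with DESeq2 size factors, 15% with total counts alone and 16.3% with the groups fitted alone. In the cortical gates it was 8.81% with no filter, 16% with limma voom and 13.5% with the replicate block. With those groups fitted alone it was 22.7%, against 14.7% in the main fit. In the medullary gates the share was 19.1% with the replicate block, against 21.4%. Between GFP-negative cells it was 16.5% with age as a term and 21.9% with the groups fitted alone, against 18.6%. With a library of any group but medullary GFP-negative left out, it was 9.44% to 15.9% in the cortical and 17.5% to 21.2% in the medullary gates. Between tissues it was then 9.78% to 14.5% in GFP-positive and 10.3% to 19.7% in GFP-negative cells. The causes were not tested.

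The sign changed for values near 0. Akr1c18 in the cortical gates was -0.19 with the 3.5-month libraries only and spanned -0.31 (without cortical GFP-positive library 3) to 0.63 with a library left out. In the tissue comparison of GFP-positive cells it spanned -0.47 to 0.72, below 0 without cortical GFP-positive library 3 or medullary GFP-positive library 1 (-0.059) or 2 (-0.033). The interaction of Akr1b3 was -0.021 with total counts alone and spanned -0.062 (without medullary GFP-negative library 1) to 0.35 with a library left out. The interaction of Akr1b7 was -0.26 with age as a term and -0.48 with the 3.5-month libraries only, and spanned -0.40 (without medullary GFP-negative library 1) to 1.36 with a library left out, at -0.091 without medullary GFP-positive library 3.

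Same-numbered libraries correlated by -0.014 to 0.144 in their deviations from group means, and 1 medullary pair differs in age. Libraries of unlike number were not correlated, so these values cannot decide whether the numbers pair the libraries. No pairing was assumed in the main fit. With the replicate block Akr1b7 was called in both gate comparisons (1.597, edgeR adjusted p = 0.0244, and 1.48, 0.0414) and between GFP-negative cells (2.16, 0.0165), which made 3 genes, and Akr1c14 between GFP-positive cells (4.25, 0.045), which made 4. Over all genes, that block called 16% of those tested between GFP-negative cells and 13.9% between GFP-positive cells, against 18.6% and 15.5% in the main fit. Scaling by total counts alone put the median of all genes in the interaction at -0.19, against -0.02. Depth limits Akr1c18 and Akr1c14, with at most 52 counts in a library.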

Other observations

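Akr1d1, the steroid reductase of bile acid synthesis, had 922 counts (32.0 CPM) in medullary GFP-positive library 2, a library of mice of about 2.5 months, 1 count in medullary GFP-negative library 1 and none in the other libraries. It did not pass the filter on low counts and was singled out after its values were seen.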
